A study of Mus musculus with 12 samples.

Results

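The genes described here are the matrix proteases and their inhibitors: matrix metalloproteinases (MMP), tissue inhibitors of metalloproteinases (TIMP), membrane proteases with a disintegrin domain (ADAM), and secreted ADAM proteases with thrombospondin motifs (ADAMTS), with the ADAMTS-like proteins (ADAMTSL). Members were taken by mouse symbol: every gene on the arrays whose symbol starts with Mmp, Timp or Adam and a number, or with Adamts, leaving out Adam12. This gave 82 genes, of which 63 were detected, that is, well above background on all 3 arrays of at least 1 group, out of 24573 genes tested. The 63 comprised 16 of 22 MMP, 4 of 4 TIMP, 24 of 33 ADAM, 15 of 19 ADAMTS and 4 of 4 ADAMTSL genes.

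RNA came from C2C12, a line of mouse myoblasts able to fuse into myotubes, harvested 72 h after transfection and hybridised to 12 one-colour Agilent arrays. The 4 groups of 3 arrays were transfected with siRNA, which the titles call a knockdown of MEG3, with the plasmid pcDNA3.1-MEG3, titled overexpression, with the plasmid pcDNA3.1, titled pat1 without explanation, or with a negative control. MEG3 is a long non-coding RNA, and the study asked which genes differ after it is raised or lowered. All groups are transfected cells of 1 line, with no untransfected group, and the labels do not say whether the arrays of a group came from separate cultures, so that every p-value rests on a spread that may be technical.

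MMP enzymes are secreted or membrane-bound zinc proteases that are made as inactive proenzymes and cut collagens, laminins, fibronectin and proteoglycans. TIMP proteins block their active sites, and Timp3 also blocks several ADAM and ADAMTS proteases. ADAM proteases release the outer part of membrane proteins such as growth factors and Notch receptors, whereas ADAMTS proteases cut proteoglycans or trim procollagens. In muscle, matrix proteases are known for remodelling the basement membrane around myofibres and for myoblast migration.

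Among the MMP genes, 10 lie next to each other on chromosome 9 in the RefSeq annotation, in the order Mmp13, Mmp12, Mmp1b, Mmp3, Mmp1a, Mmp10, Mmp8, Mmp27, Mmp20 and Mmp7, with 0 other protein-coding genes between them. In each of the 3 comparisons that called any, the MMP gene with the largest called change lay in this cluster, and its members differed in direction, so the sequence just upstream of 4 of them is shown. Each is the 130 bases before the annotated start, read 5′ to 3′ on the plus strand from RefSeq promoters of build GRCm38.p6. Capitals mark matches to 2 motifs. The first is TGANTCA, bound by the AP-1 transcription factors, which reads the same on both strands. As the other motif, the TATA box was searched as TATAAA on both strands. The motifs do not overlap in these sequences.
Mmp13: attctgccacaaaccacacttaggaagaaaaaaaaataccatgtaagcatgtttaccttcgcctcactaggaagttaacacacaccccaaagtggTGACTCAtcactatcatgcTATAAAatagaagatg
Mmp3: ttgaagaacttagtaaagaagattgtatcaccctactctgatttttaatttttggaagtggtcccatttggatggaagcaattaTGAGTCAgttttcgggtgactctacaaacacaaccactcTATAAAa
Mmp10: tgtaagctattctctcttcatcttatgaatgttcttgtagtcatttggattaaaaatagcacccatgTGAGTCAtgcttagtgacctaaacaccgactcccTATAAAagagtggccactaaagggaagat
Mmp8: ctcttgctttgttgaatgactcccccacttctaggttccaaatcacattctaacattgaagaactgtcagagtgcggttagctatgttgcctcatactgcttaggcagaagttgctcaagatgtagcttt

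The windows are chr9:7272384-7272513, chr9:7445692-7445821, chr9:7502212-7502341 and chr9:7558299-7558428. TGANTCA began 35 bases before the start of Mmp13, 46 bases before that of Mmp3 and 63 bases before that of Mmp10. In Mmp8 neither motif was found in the 250 bases before the start. Over windows of 250 bases, TGANTCA occurred in 6 of 15 promoters of the detected MMP genes (40.0%) and in 2217 of all 32851 promoters (6.75%), and TATAAA in 5 of 15 (33.3%) and in 4063 of 32851 (12.4%). These 15 promoters belong to 12 genes, and all their matches lay in genes of the chromosome 9 cluster. Neither motif was found for Mmp11, Mmp14, Mmp23, Mmp24 and Mmp28, which lie elsewhere. Mmp1b and Mmp20, cluster genes that were not detected, held both motifs. Of the 82 members, 52 had a promoter in the table. A match is a description of letters and was not tied to binding.

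Levels are log2 processed signals minus the 75th percentile of their array, called the scaled level below, and a scaled level is never compared between genes because probes differ. Replicates 1 and 3 of each group differed by 0.244 to 0.891 times the noise between spots. They were counted as 1 sample, which leaves 2 samples a group. Replicate 2 differed from replicates 1 and 3 by 3.54 to 3.85 times that noise in the negative control. In the siRNA and pcDNA3.1 groups this was 1.06 to 1.19 times, and in the pcDNA3.1-MEG3 group 0.887 to 0.896 times. By this measure replicate 2 stood clearly apart in the negative control alone, so the spread in the other groups may be near that of spots. A called member had an adjusted p under 0.05 in 1 limma fit of all 8 samples, adjusted over all genes. On the siRNA arrays 62.0% to 68.6% of probes were well above background, against 69.2% to 75.9% on the other arrays, and 0 were saturated. All spots of a probe were outlying for 232 to 431 probes on the siRNA arrays, against 23 to 107 on the others. The part of this difference between arrays in the changes of the members was not tested. The 2 negative control samples stood further apart than those of the other groups: over the detected members the median gap was 0.36, against 0.12 to 0.16 in the other 3 groups. The negative control arrays lay on 1 slide, the siRNA arrays on another and both plasmid groups together on the other, so slide and group cannot be told apart except between the plasmid groups. The probe for Meg3 went against the labels: it was detected on 0 of 3 siRNA arrays, on 0 of 3 arrays labelled pcDNA3.1-MEG3, on 3 of 3 arrays labelled pcDNA3.1 and on 1 of 3 negative control arrays. Both plasmid groups are therefore named by their labels.

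Of the 63 detected members, 48 were well above background on all 12 arrays. The other 19 members on the array were not detected, namely Adam1b, Adam6a, Adam20, Adam23, Adam24, Adam28, Adam29, Adam34, Adam34l, Adamts3, Adamts10, Adamts15, Adamts19, Mmp1b, Mmp15, Mmp16, Mmp20, Mmp21 and Mmp25. The group means of a detected member differed by a median of 1.01 on the log2 scale from the lowest to the highest group. This range was under 0.5 for 9 members, 0.5 to 1 for 21 and 1 or more for 33. The siRNA group held the highest mean for 21 members, the group labelled pcDNA3.1-MEG3 for 11, the group labelled pcDNA3.1 for 19 and the negative control for 12. The 2 samples of a group lay more than 1 log2 unit apart for 11 members in the siRNA group (Adam2, Adam3, Adam26b, Adam30, Adam33, Adamts8, Adamts12, Adamts18, Adamts20, Adamtsl2 and Mmp23) and for 1, Adam30, in the group labelled pcDNA3.1-MEG3. In the group labelled pcDNA3.1 this held for 5 (Adam3, Adam39, Adamts6, Adamts13 and Mmp1a), and in the negative control for 6 (Adam17, Adamts14, Adamtsl1, Adamtsl4, Mmp14 and Timp4).

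**Figure D1:**
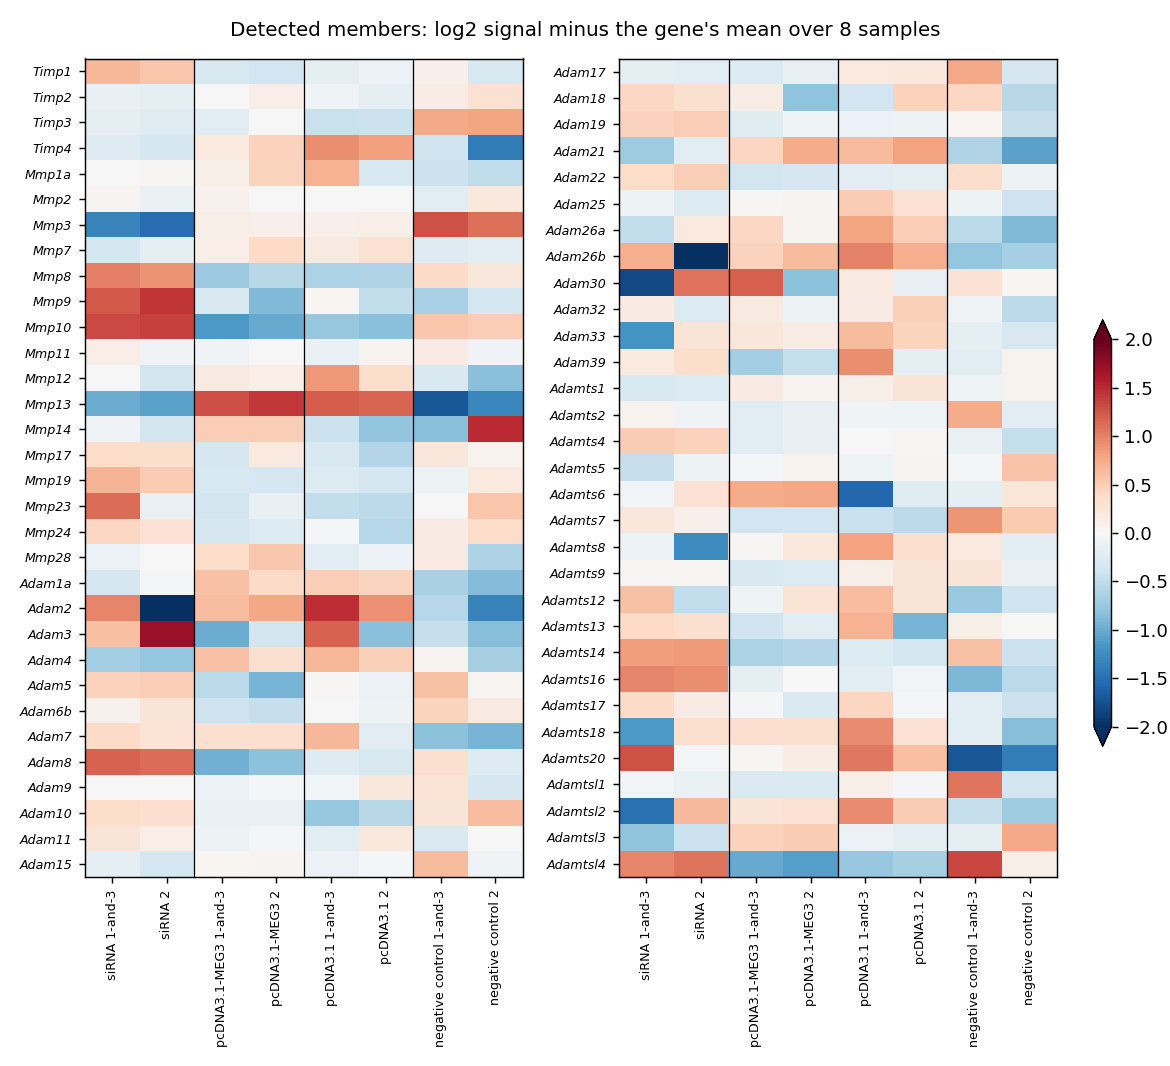
Scaled level of each of the 63 detected members (rows, by family and number) in each of the 8 samples (columns) minus the gene's mean over the samples, in log2 units from blue (lower) to red (higher), with colours capped at 2 in either direction; vertical lines part the groups. For Mmp3, Mmp8 and Mmp10 the siRNA, plasmid and negative control samples do not overlap, and for Mmp13 the 4 plasmid samples lie above the other 4, whereas Adam2, Adam26b and Adam30 differ between the 2 siRNA samples.

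In siRNA cells against the negative control, 8 members were higher and 2 lower, among 7.75% of all 24527 genes called higher and 4.64% called lower. The members' median log2 change was 0.17, and that of all genes 0.06. Between the plasmid groups 0 members were called, among 0% of genes higher and 0.00814% lower. The group labelled pcDNA3.1 against the negative control had 8 members higher and 6 lower, among 11.3% of genes higher and 6.64% lower, with a median of 0.10 over the members and 0.22 over all genes. In siRNA cells against both plasmid groups, 14 members were higher and 6 lower, among 10.6% of genes higher and 8.16% lower, with medians of 0.05 and -0.11. The higher counts include Mmp9 in both siRNA comparisons and Adamts20 in both comparisons with the negative control. Each entered the fit only through groups where it was high, so a difference was built into these calls. The same filter was applied to all genes. These comparisons share groups, so they are not independent of each other, and 27 members were called in at least 1 of them. Each gene was tested by its brightest probe, and further probes were not tested on their own. A further probe of Adamts17, an uncalled gene, was well above background on 6 of 12 arrays. Its log2 change was -3.29 for pcDNA3.1 against the negative control and 3.63 in siRNA cells against both plasmid groups. In the latter comparison further probes of Adam11 and Adamts5, also uncalled, gave -1.03 and -1.11.

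The split by direction depended on how arrays were scaled. With arrays centred on their medians, 6 members were higher and 3 lower in siRNA cells against the negative control, 5 higher and 14 lower in pcDNA3.1 cells against the negative control, and 18 higher and 4 lower in siRNA cells against both plasmid groups. The median of all genes was then -0.13, -0.23 and 0.12 in these 3 comparisons. Quantile normalisation gave 6 higher and 10 lower for pcDNA3.1 against the negative control and 19 higher and 4 lower for siRNA against both plasmid groups. Among all genes called in siRNA cells against the negative control, 1900 were higher and 1139 lower as scaled here, and 1094 and 1571 with median centring; for pcDNA3.1 against the negative control these were 2767 and 1631, against 1033 and 4195, and for siRNA against both plasmid groups 2594 and 2001, against 4436 and 1224. Leaving out 1 sample also moved the member counts. The 10 called in siRNA cells against the negative control became 20 without negative control replicates 1 and 3 and 18 without replicate 2, and 1, Mmp3, with only those groups in the fit. The 14 for pcDNA3.1 against the negative control became 2 without pcDNA3.1 replicates 1 and 3, 5 without its replicate 2 and 23 and 21 without the same samples of the negative control. The 20 for siRNA against both plasmid groups became 7 without either pcDNA3.1-MEG3 sample, 10 and 9 without pcDNA3.1 replicates 1 and 3 or 2, and 13 without siRNA replicates 1 and 3.

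Timp3 was lower than the negative control in siRNA cells and in the group labelled pcDNA3.1, Timp1 was higher in siRNA cells than in the plasmid groups, and Timp4 was higher in the group labelled pcDNA3.1. Timp3, the inhibitor that binds to the matrix, had scaled levels of 2.79 and 2.75 in siRNA samples, 2.77 and 2.99 in samples labelled pcDNA3.1-MEG3, 2.54 and 2.56 in samples labelled pcDNA3.1, and 3.75 and 3.78 in negative control samples. The negative control thus stood above all 6 other samples. The log2 change was -0.995 (SE 0.14, adjusted p = 0.0117) in siRNA cells against the negative control and -1.21 (SE 0.14, adjusted p = 0.00595) for pcDNA3.1 against the negative control, and 0.05 (SE 0.12) for siRNA against both plasmid groups, which did not pass. Because only the negative control differed and its arrays lay on a slide of their own, slide and transfection cannot be told apart for Timp3. The pcDNA3.1 call was lost without pcDNA3.1 replicates 1 and 3 (adjusted p = 0.063).

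Timp1, a soluble inhibitor of most MMP enzymes, had scaled levels of 5.14 and 5.02 in siRNA samples, 4.14 and 4.09 in samples labelled pcDNA3.1-MEG3, 4.28 and 4.35 in samples labelled pcDNA3.1, and 4.58 and 4.15 in negative control samples. Both siRNA samples were above all others. It was higher by 0.86 (SE 0.16, adjusted p = 0.0168) than in both plasmid groups, and by 0.72 (SE 0.18) than in the negative control, which did not pass (adjusted p = 0.055). This second change passed with quantile normalisation (0.85, adjusted p = 0.0126) and in the table deposited by the authors (0.85, adjusted p = 0.0118). It did not pass with median centring (0.53, adjusted p = 0.14) or normexp background correction (0.72, adjusted p = 0.0578). The first call was lost without either sample of either plasmid group and without siRNA replicates 1 and 3, with adjusted p of 0.0576 to 0.0747. Timp4, the most tissue-restricted of the family, had scaled levels of -3.62 and -3.69 in siRNA samples, -3.16 and -2.90 in samples labelled pcDNA3.1-MEG3, -2.42 and -2.54 in samples labelled pcDNA3.1, and -3.76 and -4.76 in negative control samples. The pcDNA3.1 samples were the highest and the negative control samples the lowest, about 1 log2 unit apart. The change between them was 1.78 (SE 0.33, adjusted p = 0.0204), and the call was lost without either pcDNA3.1 sample (adjusted p = 0.124 and 0.0851). Timp2, which helps Mmp14 to activate the proenzyme of Mmp2, had scaled levels of 4.17 and 4.15 in siRNA samples, 4.34 and 4.45 in samples labelled pcDNA3.1-MEG3, 4.25 and 4.14 in samples labelled pcDNA3.1, and 4.47 and 4.63 in negative control samples. It was called in no comparison, with log2 changes of -0.39 (SE 0.14) in siRNA cells against the negative control and -0.36 (SE 0.14) for pcDNA3.1 against the negative control, adjusted p = 0.123 and 0.124.

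**Figure D2:**
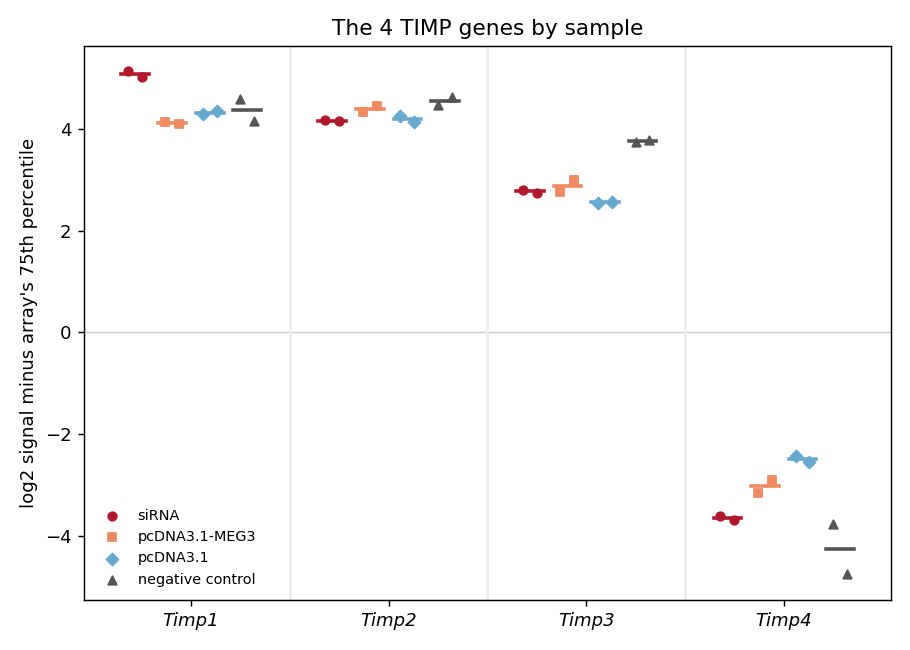
Scaled level (log2 signal minus the array's 75th percentile) of Timp1, Timp2, Timp3 and Timp4 in the 2 samples of each group, with a line at the group mean. For Timp3 the negative control samples, at 3.75 and 3.78, lie above the other 6; for Timp1 the siRNA samples, at 5.14 and 5.02, lie above the other 6.

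Mmp3 and Mmp10, which encode the closely related stromelysins 1 and 2, differed in opposite directions in siRNA cells. Mmp3 had scaled levels of -0.71 and -0.91 in siRNA samples, 0.73 and 0.72 in samples labelled pcDNA3.1-MEG3, 0.71 and 0.73 in samples labelled pcDNA3.1, and 1.89 and 1.72 in negative control samples. The 3 kinds of transfection did not overlap, with siRNA lowest and the negative control highest, and the plasmid groups coincided between them. Mmp3 was 6.13-fold lower in siRNA cells than in the negative control (log2 change -2.61, SE 0.14, adjusted p = 0.000683), 2.89-fold lower than in both plasmid groups (adjusted p = 0.00122) and 2.12-fold lower in the group labelled pcDNA3.1 than in the negative control (adjusted p = 0.00863). Mmp10 had scaled levels of 1.71 and 1.75 in siRNA samples, -0.76 and -0.62 in samples labelled pcDNA3.1-MEG3, -0.37 and -0.45 in samples labelled pcDNA3.1, and 0.94 and 0.87 in negative control samples. Here siRNA samples were highest and plasmid samples lowest. Mmp10 was 1.76-fold higher in siRNA cells than in the negative control (log2 change 0.82, SE 0.13, adjusted p = 0.0175), 4.85-fold higher than in both plasmid groups (2.28, SE 0.11, adjusted p = 0.00031) and 2.49-fold lower in the group labelled pcDNA3.1 than in the negative control (-1.32, SE 0.13, adjusted p = 0.00402).

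The interstitial collagenases of the cluster, Mmp8 and Mmp13, also differed from each other. Mmp8, first described in neutrophils, had scaled levels of 1.39 and 1.28 in siRNA samples, -0.36 and -0.18 in samples labelled pcDNA3.1-MEG3, -0.26 and -0.22 in samples labelled pcDNA3.1, and 0.76 and 0.60 in negative control samples. The order of the groups was the one seen for Mmp10, its neighbour on the chromosome. Mmp8 was 3.01-fold higher in siRNA cells than in both plasmid groups (log2 change 1.59, SE 0.12, adjusted p = 0.00116), 1.58-fold higher than in the negative control (0.66, SE 0.14, adjusted p = 0.0394), and 1.89-fold lower in the group labelled pcDNA3.1 than in the negative control (adjusted p = 0.0135). Mmp13, the main interstitial collagenase of mouse connective tissue, had scaled levels of -2.03 and -2.11 in siRNA samples, 0.26 and 0.38 in samples labelled pcDNA3.1-MEG3, 0.18 and 0.14 in samples labelled pcDNA3.1, and -2.73 and -2.33 in negative control samples. All 4 plasmid samples were well above the other 4. It was 6.46-fold higher in the group labelled pcDNA3.1 than in the negative control (2.69, SE 0.17, adjusted p = 0.000996) and 4.94-fold lower in siRNA cells than in both plasmid groups (-2.30, SE 0.15, adjusted p = 0.000662), while siRNA cells against the negative control gave 0.47 (SE 0.17, adjusted p = 0.143).

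The other detected genes of the cluster were Mmp12, Mmp7 and Mmp1a. Mmp12, the macrophage elastase, had scaled levels of -3.98 and -4.34 in siRNA samples, -3.79 and -3.84 in samples labelled pcDNA3.1-MEG3, -3.10 and -3.62 in samples labelled pcDNA3.1, and -4.28 and -4.80 in negative control samples. It was 2.27-fold higher in the group labelled pcDNA3.1 than in the negative control (adjusted p = 0.0353), and this call was lost without either pcDNA3.1 sample (adjusted p = 0.184 and 0.0666) and without negative control replicate 2 (0.0777). Mmp7, matrilysin, was 1.45-fold lower in siRNA cells than in both plasmid groups (adjusted p = 0.0438), a call lost without any 1 of the 6 samples compared (adjusted p of 0.0808 to 0.171) and in 13 of 17 alternatives. Mmp1a, the mouse counterpart of human collagenase 1, was detected on 1 of 3 siRNA arrays, 3 of 3 labelled pcDNA3.1-MEG3, 2 of 3 labelled pcDNA3.1 and 1 of 3 negative control arrays, and was not called. Of the 7 detected cluster genes, 2 were higher and 1 lower in siRNA cells against the negative control, 2 higher and 3 lower for pcDNA3.1 against the negative control, and 2 higher and 3 lower in siRNA cells against both plasmid groups. Of the 9 detected MMP genes elsewhere these counts were 1 and 0, 0 and 0, and 2 and 0. Of all genes tested, 12.4%, 17.9% and 18.7% were called in either direction in these comparisons. In a set of 9 genes, counts of 0 to 2 lie near those shares. The cluster was singled out because it held the largest called MMP changes, and its counts were not tested against the rest. The changes of Mmp3 in siRNA cells against the negative control, of Mmp10 and Mmp13 for pcDNA3.1 against the negative control, and of Mmp3, Mmp8, Mmp10 and Mmp13 in siRNA cells against both plasmid groups passed under every alternative tried. Without siRNA replicates 1 and 3 the calls against the negative control were lost for Mmp10 (adjusted p = 0.0558) and Mmp8 (0.127), and for Mmp8 also without siRNA replicate 2 (0.0587). For pcDNA3.1 against the negative control, the calls of Mmp3 and Mmp8 were lost without either pcDNA3.1 sample (for Mmp8 0.103 and 0.0707, for Mmp3 0.0789 and 0.0541). The call of Mmp8 in siRNA cells against the negative control was lost in 8 of 15 alternatives, as was that of Mmp12 in the group labelled pcDNA3.1.

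**Figure D3:**
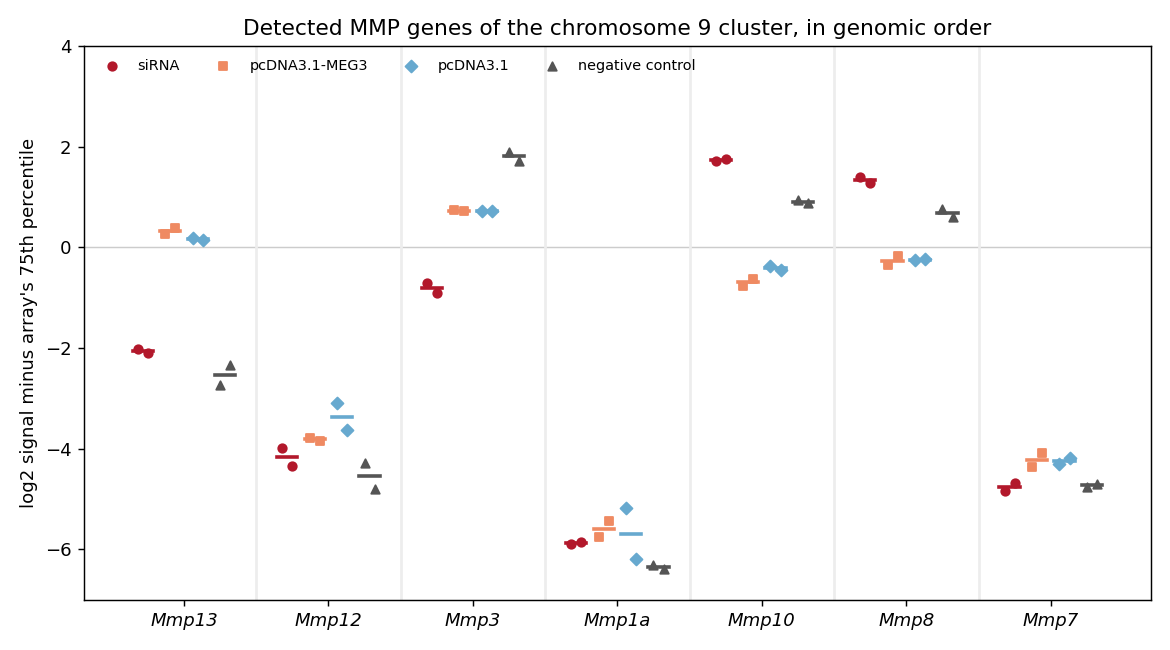
Scaled level (log2 signal minus the array's 75th percentile) of the 7 detected MMP genes of the chromosome 9 cluster, in genomic order, in the 2 samples of each group, with a line at the group mean. The siRNA samples are lowest for Mmp3 and highest for the neighbouring Mmp10 and Mmp8, and the 4 plasmid samples of Mmp13, at 0.14 to 0.38, stand above all others. Some arrays of Mmp1a were not well above background.

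Outside the cluster, the gelatinase genes behaved differently from each other. Mmp9, gelatinase B, had scaled levels of -5.57 and -5.37 in siRNA samples, -7.13 and -7.69 in samples labelled pcDNA3.1-MEG3, -6.76 and -7.30 in samples labelled pcDNA3.1, and -7.46 and -7.16 in negative control samples. It was detected on 3 of 3 siRNA arrays, 1 of 6 plasmid arrays and 0 of 3 negative control arrays. It thus entered the fit only through the group where it was highest, and a difference was built into that choice. Against the negative control it has a bound, at least 2.32-fold higher (adjusted p = 0.0148). Such a bound sets each dim array to its weakest clearly detected probe, or to the gene's own probe where that is brighter. The adjusted p beside a bound comes from the fit of the values as measured, dim arrays included, and not from the bound. Against both plasmid groups it was also called higher (adjusted p = 0.00718), with no fold given because 1 of 6 plasmid arrays measured it. With normexp background correction neither call passed (adjusted p = 0.0716 and 0.0644). Mmp2, gelatinase A, had scaled levels of 4.59 and 4.40 in siRNA samples, 4.60 and 4.53 in samples labelled pcDNA3.1-MEG3, 4.53 and 4.51 in samples labelled pcDNA3.1, and 4.31 and 4.73 in negative control samples. The groups overlapped, and the 4 log2 changes lay between -0.05 and 0.05. Mmp11, stromelysin 3, had scaled levels of 4.59 and 4.39, 4.38 and 4.45, 4.33 and 4.53, and 4.62 and 4.39 in the same order of groups, and likewise overlapped in all of them.

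Mmp19, an MMP of broad tissue distribution, was 1.89-fold higher in siRNA cells than in both plasmid groups (adjusted p = 0.00969), at -0.13 and -0.31 in siRNA samples, -1.14 and -1.15 in samples labelled pcDNA3.1-MEG3, -1.09 and -1.17 in samples labelled pcDNA3.1, and -0.92 and -0.61 in negative control samples. This call was lost without either pcDNA3.1-MEG3 sample (adjusted p = 0.0505 and 0.0528). Mmp14, the membrane-bound MMP that activates the proenzyme of Mmp2, stood at -3.54 and -1.21 in the 2 negative control samples, a gap wider than any difference between its group means, and was not called. Its other samples lay between -3.49 and -2.20. The remaining MMP genes, Mmp17, Mmp23, Mmp24 and Mmp28, were called in no comparison.

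Adam8, a sheddase best known from leukocytes, was higher in siRNA cells, whereas Adam10, the protease that cuts Notch receptors and many other membrane proteins, was lower in the group labelled pcDNA3.1. The scaled level of Adam8 was -0.48 and -0.55 in siRNA samples, -2.63 and -2.48 in samples labelled pcDNA3.1-MEG3, -1.93 and -1.99 in samples labelled pcDNA3.1, and -1.35 and -1.92 in negative control samples. Both siRNA samples stood above the others. The difference was 3.34-fold against both plasmid groups (log2 change 1.74, SE 0.18, adjusted p = 0.00302), which passed under every alternative tried, and 2.16-fold against the negative control (1.11, SE 0.21, adjusted p = 0.0276), which was lost without siRNA replicates 1 and 3 (adjusted p = 0.0742). Adam10 had scaled levels of 3.12 and 3.097 in siRNA samples, 2.62 and 2.63 in samples labelled pcDNA3.1-MEG3, 2.00 and 2.20 in samples labelled pcDNA3.1, and 3.01 and 3.36 in negative control samples. Plasmid samples were below all others. Adam10 was 2.12-fold lower in the group labelled pcDNA3.1 than in the negative control (-1.08, SE 0.17, adjusted p = 0.0135) and 1.68-fold higher in siRNA cells than in both plasmid groups (adjusted p = 0.0215), and the first of these was lost without either pcDNA3.1 sample (0.104 and 0.0554), and the second without any 1 of the 6 samples compared (0.057 to 0.0866).

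Adam9 and Adam15, broadly expressed sheddases, were called in no comparison. Adam9 had scaled levels of 4.43 and 4.43 in siRNA samples, 4.31 and 4.39 in samples labelled pcDNA3.1-MEG3, 4.36 and 4.64 in samples labelled pcDNA3.1, and 4.70 and 4.08 in negative control samples. For Adam15 these were 2.60 and 2.45, 2.84 and 2.85, 2.68 and 2.78, and 3.42 and 2.72 in the same order. In both genes the negative control samples spanned most of the range. Adam17, which releases tumour necrosis factor, and Adam19 (meltrin beta) were not called either, with log2 changes of -0.42 (SE 0.34) and 0.68 (SE 0.20, adjusted p = 0.0768) in siRNA cells against the negative control.

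Several other called ADAM genes are known in mice mainly from testis or epididymis. Adam1a, a fertilin alpha gene, had scaled levels of -4.11 and -3.82 in siRNA samples, -3.19 and -3.39 in samples labelled pcDNA3.1-MEG3, -3.29 and -3.33 in samples labelled pcDNA3.1, and -4.42 and -4.64 in negative control samples. It was 2.33-fold higher in the group labelled pcDNA3.1 than in the negative control (adjusted p = 0.0106) and 1.59-fold lower in siRNA cells than in both plasmid groups (adjusted p = 0.0313), the second call lost without any 1 plasmid sample or siRNA replicates 1 and 3 (adjusted p of 0.0882 to 0.131). Adam21 had scaled levels of -5.59 and -5.10 in siRNA samples, -4.44 and -4.12 in samples labelled pcDNA3.1-MEG3, -4.24 and -4.08 in samples labelled pcDNA3.1, and -5.47 and -5.95 in negative control samples. As with Adam1a, the 4 plasmid samples stood above the other 4. It was 2.93-fold higher in the group labelled pcDNA3.1 than in the negative control (adjusted p = 0.0153) and was called lower in siRNA cells than in both plasmid groups (adjusted p = 0.0215), with no fold given because 1 of 3 siRNA arrays measured it. Adam4, also at 1 of 3 siRNA arrays, stood at -5.56 and -5.64 in siRNA samples, -4.28 and -4.55 in samples labelled pcDNA3.1-MEG3, -4.20 and -4.39 in samples labelled pcDNA3.1, and -4.81 and -5.54 in negative control samples, and was called lower in siRNA cells than in both plasmid groups (adjusted p = 0.0175), again with no fold.

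Adam26a stood at -6.03 and -5.35 in siRNA samples, -5.12 and -5.47 in samples labelled pcDNA3.1-MEG3, -4.75 and -5.05 in samples labelled pcDNA3.1, and -6.08 and -6.42 in negative control samples. It was 2.55-fold higher in the group labelled pcDNA3.1 than in the negative control (adjusted p = 0.0295), as was Adam25 by 1.58-fold (adjusted p = 0.0475). The call of Adam25 was lost in 11 of 15 alternatives, among them without either pcDNA3.1 sample (0.244 and 0.131) and without negative control replicate 2 (0.0541). Adam26a and Adam26b are close copies, and whether their probes tell them apart was not tested. Adam7, known from the epididymis, stood at -3.04 and -3.14 in siRNA samples, -3.10 and -3.08 in samples labelled pcDNA3.1-MEG3, -2.75 and -3.64 in samples labelled pcDNA3.1, and -4.24 and -4.35 in negative control samples. It was 2.31-fold higher in siRNA cells than in the negative control (adjusted p = 0.0487), and that call was lost without any 1 of the 4 samples compared, at adjusted p of 0.0639 to 0.114. Adam5 and Adam22, of which Adam22 encodes a catalytically inactive receptor known from neurons, were 1.82-fold and 1.63-fold higher in siRNA cells than in both plasmid groups (adjusted p = 0.0363 and 0.031), and both calls were lost without any 1 of the 6 samples compared (adjusted p of 0.0653 to 0.115). Without either pcDNA3.1 sample the calls against the negative control were lost for Adam1a (0.0858 and 0.0571), Adam21 (0.0904 and 0.081) and Adam26a (0.167 and 0.0915), and that of Adam26a also without negative control replicate 2 (0.078). Against both plasmid groups, Adam4 and Adam21 lost theirs without any 1 of the 4 plasmid samples (adjusted p of 0.0527 to 0.0827), and Adam21 without siRNA replicates 1 and 3 (0.0684). With normexp background correction none of the calls of Adam1a, Adam21 and Adam26a against the negative control, of Adam7, or of Adam4 and Adam21 against both plasmid groups passed (adjusted p of 0.0577 to 0.553), and that of Adam7 was lost in 10 of 15 alternatives.

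Of 15 ADAMTS genes tested, 3 were higher and 0 lower in siRNA cells against the negative control, among 7.75% and 4.64% of all genes. At the second share, 0 lower is not a result about the family. The 3 include Adamts20, which was not well above background on any negative control array. Adamts16 had scaled levels of -2.32 and -2.37 in siRNA samples, -3.49 and -3.31 in samples labelled pcDNA3.1-MEG3, -3.52 and -3.36 in samples labelled pcDNA3.1, and -4.19 and -3.83 in negative control samples. It was 3.17-fold higher in siRNA cells than in the negative control (log2 change 1.67, SE 0.17, adjusted p = 0.00494) and 2.11-fold higher than in both plasmid groups (adjusted p = 0.00784). A further probe of Adamts16 moved the same way by less, 0.47 and 0.26. Adamts4, an aggrecanase, had scaled levels of 2.45 and 2.41 in siRNA samples, 1.73 and 1.80 in samples labelled pcDNA3.1-MEG3, 1.93 and 1.96 in samples labelled pcDNA3.1, and 1.81 and 1.47 in negative control samples. It was 1.73-fold higher in siRNA cells than in the negative control (adjusted p = 0.0319) and 1.49-fold higher than in both plasmid groups (adjusted p = 0.0373), the first of these lost without either siRNA sample (0.092 and 0.0527). The first call was lost in 6 of 15 alternatives, at adjusted p up to 0.242, and the second without any 1 of the 6 samples compared (0.0953 to 0.131).

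Adamts20, a versican-cutting protease known from pigmentation in mice, was detected on 2 of 3 siRNA arrays, 3 of 3 labelled pcDNA3.1-MEG3, 3 of 3 labelled pcDNA3.1 and 0 of 3 negative control arrays. Its scaled levels were -5.26 and -6.56 in siRNA samples, -6.52 and -6.40 in samples labelled pcDNA3.1-MEG3, -5.48 and -5.93 in samples labelled pcDNA3.1, and -8.24 and -7.92 in negative control samples. It thus entered the fit only through the plasmid groups, and a difference from the negative control was built into that choice. By its bounds it was at least 1.71-fold higher in siRNA cells than in the negative control (adjusted p = 0.0309). In the group labelled pcDNA3.1 it was at least 1.97-fold higher (adjusted p = 0.0196). Both adjusted p are again those of the fit, not of the bounds. The first call was lost without either negative control sample (0.0719 and 0.0517), and the second without either pcDNA3.1 sample (0.124 and 0.0666) or negative control replicates 1 and 3 (0.0501). Neither passed with normexp background correction (adjusted p = 0.0778 and 0.0961). Adamts7, which cuts cartilage oligomeric matrix protein, had scaled levels of 0.58 and 0.46 in siRNA samples, -0.03 and -0.03 in samples labelled pcDNA3.1-MEG3, -0.09 and -0.18 in samples labelled pcDNA3.1, and 1.23 and 0.88 in negative control samples. Its order was negative control, siRNA, then both plasmid groups, with no overlap between these. Adamts7 was 2.28-fold lower in the group labelled pcDNA3.1 than in the negative control (adjusted p = 0.00992), a call lost without either pcDNA3.1 sample (0.0758 and 0.0594), and 1.52-fold higher in siRNA cells than in both plasmid groups (adjusted p = 0.0364), a call lost without any 1 of the 6 samples compared (0.0756 to 0.134).

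Adamtsl4, a fibrillin-binding protein without a protease domain, stood at 2.42 and 2.53 in siRNA samples, 0.43 and 0.34 in samples labelled pcDNA3.1-MEG3, 0.69 and 0.78 in samples labelled pcDNA3.1, and 2.77 and 1.56 in negative control samples. It was 3.77-fold higher in siRNA cells than in both plasmid groups (log2 change 1.92, SE 0.33, adjusted p = 0.014), and the negative control samples, 1.21 apart, lay on either side of the siRNA samples. That call was lost without pcDNA3.1 replicates 1 and 3 or either pcDNA3.1-MEG3 sample (0.0527 to 0.0595). Adamts14, a procollagen N-proteinase, stood at 0.93 and 0.95 in siRNA samples, -0.55 and -0.49 in samples labelled pcDNA3.1-MEG3, -0.19 and -0.27 in samples labelled pcDNA3.1, and 0.67 and -0.35 in negative control samples. It was 2.48-fold higher in siRNA cells than in both plasmid groups (adjusted p = 0.0269), but a further probe of the gene gave -1.004, the mean of its probes gave 0.15, and the call was lost without any 1 of the 6 samples compared (0.0616 to 0.0913). Adamts2, another procollagen N-proteinase, and Adamts1, a versicanase and aggrecanase, were called in no comparison. Adamts2 stood at 2.46 and 2.32, 2.17 and 2.25, 2.32 and 2.30, and 3.13 and 2.18 in siRNA, pcDNA3.1-MEG3, pcDNA3.1 and negative control samples. Adamts1 stood at 1.81 and 1.85, 2.28 and 2.18, 2.23 and 2.38, and 2.03 and 2.19 in that order, lower in both siRNA samples than in the rest but not past the threshold against both plasmid groups (adjusted p = 0.0538).

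**Figure D4:**
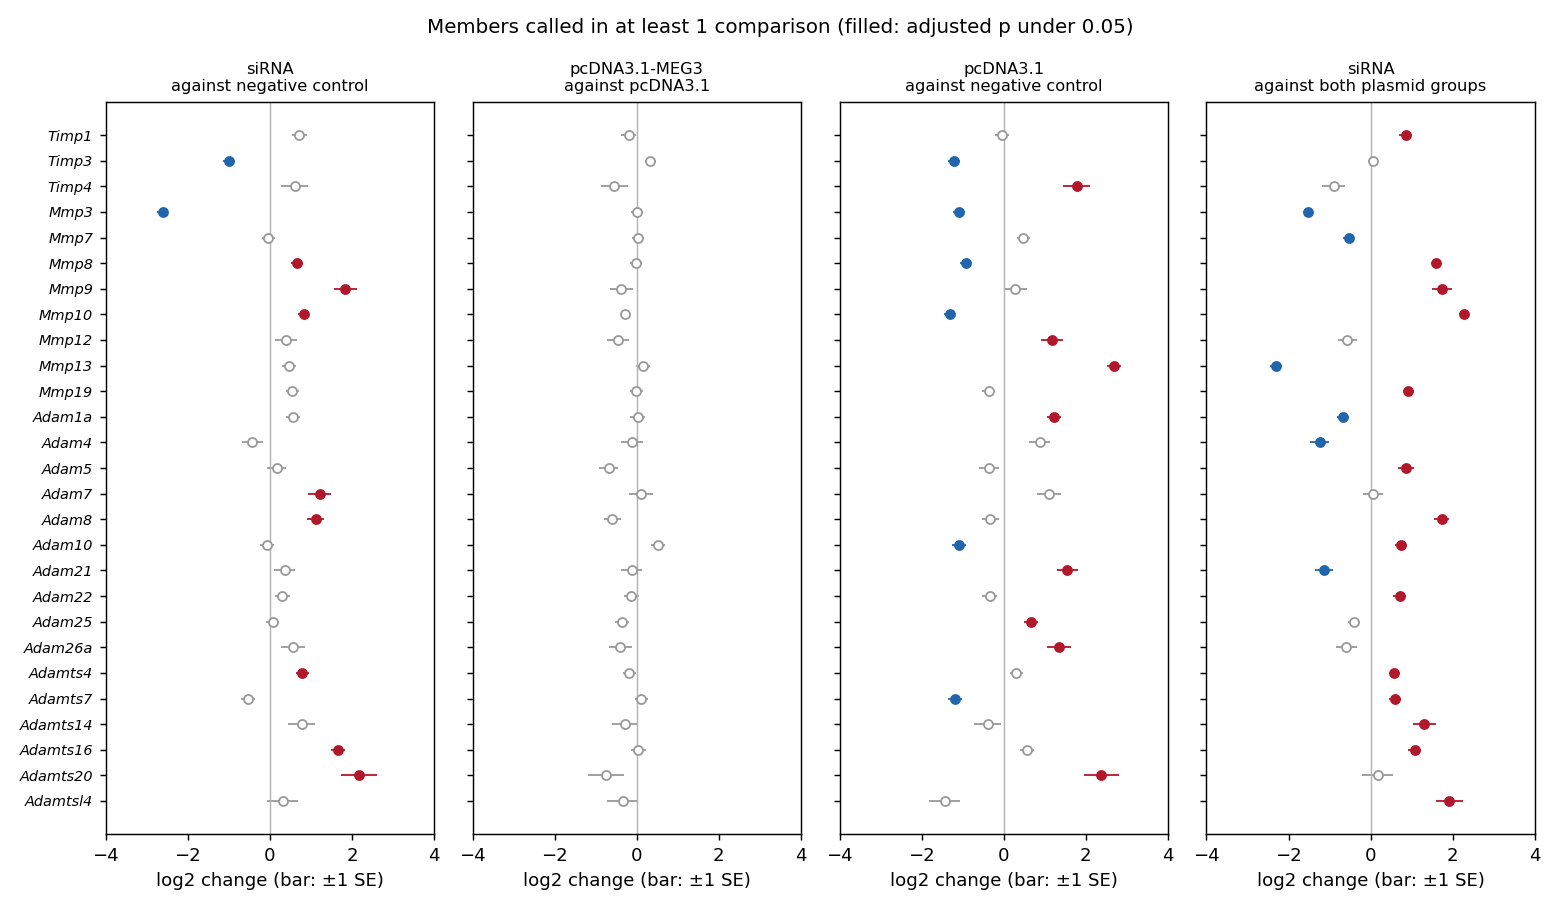
Fitted log2 change (horizontal axis, bars of 1 SE) of the 27 members called in at least 1 comparison (rows, by family), in each of the 4 comparisons (panels); filled red and blue points were called higher and lower, open grey points were not called. Mmp3 lies farthest left in siRNA against negative control, at -2.61, and Mmp13 farthest right in pcDNA3.1 against negative control, at 2.69, while the plasmid panel holds 0 filled points. Values of Mmp9 and Adamts20 against the negative control, and of Mmp9, Adam4 and Adam21 against both plasmid groups, rest in part on arrays not well above background.

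The plasmid groups, which shared a slide, did not differ in any member after adjustment in limma, at a lowest adjusted p of 0.304. The log2 change was smaller than 0.5 in either direction for 52 of 63 members, by their tested probes. A further probe of Adamts5, well above background on 10 of 12 arrays, gave 1.31, and a further probe of Adamts2 gave -0.58. Neither was tested on its own. At an unadjusted p under 0.05 there were 7 members, among 2497 of all 24565 genes (10.2%). These 7 were Adam5, Adam6b, Adam8, Adam10, Adam39, Adamts6 and Adamts9, named after their values were seen. Adamts6 stood at -5.31 and -5.28 in samples labelled pcDNA3.1-MEG3 and at -7.63 and -6.30 in samples labelled pcDNA3.1, well above background on 3 of 3 and 0 of 3 arrays, and did not pass (adjusted p = 0.304). It entered the fit only through the group labelled pcDNA3.1-MEG3, so a difference was built into that choice. Adam10 was higher by 0.52 (SE 0.17) in samples labelled pcDNA3.1-MEG3, and Adam8 had a log2 change of -0.60 (SE 0.21). Within the first scan of the slide the change of Adam10 was 0.50. The second scan held replicate 3 alone, counted here as 1 sample with replicate 1, so that it gives no separate value. Other fits called 10 members (15.9%) with the 12 arrays as 12 samples, among 12.2% of all genes, 3 (4.76%) with the plasmid groups alone, among 7.98%, and 24 (38.1%) with the scan as a block, among 45.5%. The first and the last of these fits count replicates 1 and 3 as separate samples.

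Genes that act with these proteases were counted by list. The shares of all genes called, against which these counts stand, were 7.75% higher and 4.64% lower in siRNA cells against the negative control, 11.3% and 6.64% for pcDNA3.1 against the negative control, and 10.6% and 8.16% in siRNA cells against both plasmid groups. In lists this short a count of 1 or 2 lies near those shares and is not a result about the list. Among 8 protease inhibitors outside the TIMP family, 0 were higher and 2 lower in siRNA cells against the negative control, and 1 was higher and 1 lower for pcDNA3.1 against the negative control. Reck, a membrane-anchored MMP inhibitor, was not called, with -0.25 (SE 0.21) in siRNA cells against the negative control. Of 9 proprotein convertases and other activators, 1 was higher in siRNA cells against the negative control, 2 for pcDNA3.1 against the negative control and 2 in siRNA cells against both plasmid groups, with 0 lower. Of 6 matrix-degrading cathepsins, 1 was higher in each comparison with the negative control. Of 13 ligands shed by ADAM proteases, 2 were higher in siRNA cells against the negative control, 4 higher and 1 lower for pcDNA3.1 against the negative control, and 2 higher in siRNA cells against both plasmid groups. Among these was Hbegf, an epidermal growth factor family ligand, with -1.28 (SE 0.14, adjusted p = 0.00499) for pcDNA3.1 against the negative control and 1.81 (SE 0.12, adjusted p = 0.000669) in siRNA cells against both plasmid groups. Of 12 basement membrane and fibronectin substrates, 4 were higher in siRNA cells than in the negative control and 5 than in both plasmid groups, with 0 lower in either. Of 7 proteoglycans and related proteins cut by ADAMTS proteases, 0 were higher and 1 lower in siRNA cells against the negative control, 1 and 3 for pcDNA3.1 against the negative control, and 2 and 1 in siRNA cells against both plasmid groups. Of the proteins that guide ADAM proteases through the cell, 2 of 8 were higher in siRNA cells against the negative control, 1 of 9 for pcDNA3.1 against the negative control, and 1 higher and 1 lower of 8 in siRNA cells against both plasmid groups.

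Other features of the cells moved with the groups. Myoblast markers were measured on all arrays for 6 or 7 of 8 genes in each group. Of the 7 tested, 3 were higher and 1 lower in siRNA cells against the negative control, among 7.75% and 4.64% of all genes. Their median log2 change there was -0.22, so more calls were higher while the median was negative. For pcDNA3.1 against the negative control 0 were higher and 3 lower (median -0.50). In siRNA cells against both plasmid groups 4 were higher and 0 lower (median 1.35). Markers of differentiated muscle were higher in siRNA cells than in the negative control for 9 of 9 genes. A summed level adds the scaled signals of a list on each of the 3 arrays of a group, so the brightest probes weigh most. On the log2 scale that of differentiated muscle was 5.95 to 6.09 on siRNA arrays and 2.92 to 3.17 on negative control arrays. It was 1.77 to 1.78 on arrays labelled pcDNA3.1-MEG3 and 1.52 to 1.60 on arrays labelled pcDNA3.1. For pcDNA3.1 against the negative control 2 of these 9 were called higher and 1 lower, with a median log2 change of 0.91, so the summed level and the median differ in sign. Interferon response genes were higher in the group labelled pcDNA3.1 than in the negative control for 6 of 7. Their summed level was 0.28 to 0.47 on siRNA arrays and -0.42 to -0.28 on negative control arrays. It was 4.97 to 5.06 on arrays labelled pcDNA3.1-MEG3 and 4.75 to 4.82 on arrays labelled pcDNA3.1. Among the 63 detected members, the highest mean lay in the group labelled pcDNA3.1 for 19 and in that labelled pcDNA3.1-MEG3 for 11. A link of any of these members to the interferon genes was not tested. Fibroblast markers had 0 of 7 genes called in siRNA cells against the negative control. Their summed level was 8.21 to 8.32 on siRNA arrays and 7.77 to 8.34 on negative control arrays. It was 7.46 to 7.52 on arrays labelled pcDNA3.1-MEG3 and 7.47 to 7.66 on arrays labelled pcDNA3.1. For pcDNA3.1 against the negative control 3 of the 7 were lower (median log2 change -0.50), and in siRNA cells against both plasmid groups 4 were higher (median 0.68). Macrophage markers had 1 of 4 higher in that comparison (median -0.24) and 1 of 4 higher in siRNA cells against the negative control (median -0.31). The calls and the medians thus differ in sign, and a count of 1 in a list this short lies near the shares of all genes. The summed level of the macrophage markers was -0.08 to 0.50 on siRNA arrays and 0.36 to 0.93 on negative control arrays. On arrays labelled pcDNA3.1-MEG3 it was -0.65 to -0.30, and on arrays labelled pcDNA3.1 -0.33 to -0.22. The part of these lists in the changes of the proteases was not tested. These are arrays of bulk cultures, in which fewer cells of a type and less RNA per cell cannot be told apart.

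As a description over the 8 samples, the genes whose scaled levels followed Timp1 most closely were Nox4, 1700052K11Rik and Reps2 (Pearson r of 0.996, 0.995 and 0.993). For Timp3 they were Prf1, Ncbp2 and Cbx7 (0.997, 0.981 and 0.977), and for Mmp2 Ganc, Hand2 and Pcdhb21 (0.947, 0.946 and 0.935). These samples share slides and groups, and the closest genes were picked from the 16814 tested genes that have a symbol.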

How the data were processed

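RNA of 12 arrays in 4 groups of 3 was labelled with Cy3, per the labels. Spot intensity values on a linear scale were deposited as Agilent Feature Extraction 11.0.1.1 output, background-subtracted and not normalised between arrays, per the file headers. A table of all arrays deposited by the authors also holds intensity values, used as an alternative. Here log2 signals were scaled by each array's 75th percentile, outlying spots dropped and spots averaged. Replicates 1 and 3 of a group were averaged; in 3 groups they shared a slide position in different scans. Symbols came from RefSeq accessions (27234 of 39429 probes), and the brightest probe stood for each gene, among 29611 well above background on all arrays of at least 1 group. All 8 samples entered 1 fit in limma 3.58.1 (R 4.3.3, with the data.table package at 1.17.8; two-sided, Benjamini-Hochberg, threshold 0.05; 4 residual degrees of freedom), tested on simulated data. Members and lists were chosen with earlier results of these data known. A further list of related genes is not reported here. Genes named with sample values are all TIMP genes, up to 12 called members per comparison by size, and the 3 brightest of each family. The number of arrays limits precision. Alternatives changed scaling, background correction, filters, probes, blocks and samples.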

Additional observations from a re-analysis of the deposited data

How the results depend on the processing

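The members called numbered 10 in siRNA cells against the negative control, 0 between the plasmid groups, 14 for pcDNA3.1 against the negative control and 20 for siRNA against both plasmid groups. With the 12 arrays as 12 samples they were 26, 10, 33 and 35; this counts replicates 1 and 3 separately. With only the compared groups in the fit they were 1 in siRNA cells against the negative control and 3 between the plasmid groups, with fewer samples behind the spread. Normexp background correction, chosen after seeing the data, gave 9 for pcDNA3.1 against the negative control, and the scan as a block gave 24 between the plasmid groups. Leaving out 1 sample gave 8 to 20, 0 to 0, 2 to 23 and 7 to 17. Replicate numbers did not pair the samples (correlations of deviations of -0.07 to 0.03); the replicate block gave 6 members in siRNA cells against the negative control, 0 between the plasmid groups, 12 for pcDNA3.1 against the negative control and 15 for siRNA against both plasmid groups. Except where a value shows it, the cause was not tested.

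Of 44 called values, 9 passed in all alternatives and 0 changed sign, and normexp lost 15. Some uncalled Timp changes passed under an alternative. Among these were Timp1 in siRNA cells against the negative control, with quantile normalisation and in the authors' table. Timp2 for pcDNA3.1 against the negative control passed with median centring (-0.80, adjusted p = 0.0178), and not with quantile normalisation (-0.32, adjusted p = 0.215). Uncalled Timp changes changed sign in 7 cases: Timp1 for pcDNA3.1 against the negative control, at 0.0172 with quantile normalisation, 0.0184 in the authors' table and, without 1 negative control sample, -0.259 to 0.173; Timp2 for siRNA against both plasmid groups, at 0.10 with median centring; and Timp3 in that comparison, at -0.0139 with quantile normalisation, -0.0362 in the authors' table and, without 1 pcDNA3.1-MEG3 sample, -0.00222 to 0.108. Normexp on mean signals was not run, since that column was not used here. Dim probes, near background, limit what can be said of Mmp9, Adamts20, Adam4 and Adam21.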
